A study of Mus musculus with 6 samples.

Results

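The genes described here are 10 components of contractile actin filaments and targets of the transcription factors SRF and YAP: Tagln, Acta2, Cnn1, Cnn2, Tpm1, Tpm2, Myl9, Ccn1, Ccn2 and Ankrd1. They were found by symbol in the authors' deposited table, where all 10 had a row among 17110 genes, and all 10 gene identifiers were also present in the deposited count table. The choice was made with the fold changes of this comparison known, so the values of these genes are a description and not a test. In the authors' deposited table all 10 had a negative log2 fold change, from -6.66 for Ankrd1 to -0.49 for Tpm2, with a median of -2.04 against 0.0097 for all genes.

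The samples were mouse embryonic stem cells of the line TG2A, with the genotype MERVL::Fluorescent protein, in which MERVL, an endogenous retrovirus active in the early embryo and in few cultured stem cells, drives a fluorescent reporter. They were kept in serum medium with 15% fetal bovine serum and leukemia inhibitory factor at 25 ng/mL and sorted by flow cytometry into DsRed2+ and DsRed2- cells, with 3 samples in each group taken on different dates. All groups share the line, the reporter and the medium, and the labels do not say whether the line is 1 clone. RNA with poly(A) tails was sequenced from both ends on the DNBSEQ platform.

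The sorted groups form the only comparison, which was read from the authors' deposited table. For each gene it holds 1 fold change, 1 standard error and 1 mean over all libraries. The table does not name the groups or say which is the numerator, so a negative value is negative as deposited and is not assigned to DsRed2+ or DsRed2- cells. It was taken as the comparison of the sorted groups because the labels list no others. The 6 columns of the count table match no sample label, so values per sample, and whether the groups overlap, are not analysed here. The error given throughout is the authors' standard error, written SE, and an interval is the normal 95% interval from it. In bulk RNA, fewer cells of a type and less RNA per cell cannot be told apart.

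SRF binds the CArG box, an A- and T-rich DNA element, and with its cofactors MRTF-A and MRTF-B it drives genes of the actin cytoskeleton when free actin monomers are used up in filaments. YAP and its relative TAZ enter the nucleus when cells spread or when the Hippo kinases are inactive, and act through the TEAD factors, which bind DNA at GGAATG or its complement. Both routes respond to tension on the cytoskeleton. In adult tissue Acta2, Tagln, Cnn1 and Myl9 are best known from smooth muscle and contractile fibroblasts, while Ccn1, Ccn2 and Ankrd1 are common readouts of YAP activity.

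RefSeq promoter windows on GRCm38.p6, from 250 bases before to 50 bases after an annotated start, matched 8 of the 10 by symbol (Myl9, Ccn1, Tpm2, Cnn1, Tpm1, Cnn2, Acta2 and Ankrd1). Positions below count from that start, with -1 the base just before it. The strands of the genes below are plus for Myl9 and Cnn2 and minus for Ccn1, Tpm1, Acta2 and Ankrd1, and each sequence is written 5′ to 3′ on the strand of its gene. The following stretches are shown because they hold the matches to the SRF and TEAD motifs described next, all but 1 in Acta2, with each match in capitals.
Myl9, chr2:156775276-156775399: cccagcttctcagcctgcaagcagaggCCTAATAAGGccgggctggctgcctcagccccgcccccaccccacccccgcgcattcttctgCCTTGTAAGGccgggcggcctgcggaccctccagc
Ccn1, chr3:145650025-145650148: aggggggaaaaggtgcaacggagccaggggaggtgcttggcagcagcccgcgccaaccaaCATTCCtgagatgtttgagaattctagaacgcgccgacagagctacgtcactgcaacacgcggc
Cnn2, chr10:79988534-79988563: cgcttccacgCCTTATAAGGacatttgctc
Tpm1, chr9:67049252-67049281: tggctgtcctaaGGAATGcggtcgcccccc
Acta2, chr19:34255438-34255467: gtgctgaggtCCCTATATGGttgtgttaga
Acta2, chr19:34255502-34255531: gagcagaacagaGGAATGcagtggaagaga
Ankrd1, chr19:36120037-36120066: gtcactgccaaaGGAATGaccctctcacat
Ankrd1, chr19:36119950-36119979: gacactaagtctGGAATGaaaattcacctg

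An exact CArG box was found on either strand in the windows of Cnn2, at -56 to -47, and Myl9, at -161 to -152. With 1 base of its A or T core allowed to be C or G, Myl9 had a further match at -99, and Acta2 had matches at -84, printed above, and at -34. The 6-letter TEAD motif (GGAATG or CATTCC, both strands) was found in Acta2 at -146, Tpm1 at -56, Ccn1 at -103 and Ankrd1 at -210 and -123. No CArG match overlapped a TEAD match, and the windows of Cnn1 and Tpm2 held neither set of letters. In GENCODE M21, on the same build, the printed sites of Acta2, Ankrd1 and Tpm1 overlap an annotated exon and untranslated region (UTR) of the gene. Those of Myl9, Ccn1 and Cnn2 overlap no annotated exon of the gene.

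Exact CArG boxes were thus in 2 of 8 windows, against 1.33% of the 14675 windows of genes in the authors' table and 1.63% of all 32851 windows. TEAD motifs were in 4 of 8 windows, against 12.5% and 14.7%. With the mismatch allowed, CArG boxes were in 3 of 8 windows, against 8.82% of the windows of genes in the table. Among other genes listed as SRF targets, 7 of 23 windows of MRTF-type targets and 4 of 9 windows of immediate-early targets held an exact CArG box, while 0 of 16 windows of other YAP and TAZ targets did. TEAD motifs were in 6 of those 16 windows, in 7 of the 23 of MRTF-type targets and in 2 of the 9 of immediate-early targets. They were thus not confined to genes listed as YAP and TAZ targets. GC content of the 8 windows ran from 54.7% in Acta2 and Ankrd1 to 70.7% in Cnn2, around a median of 62.8%, close to the 60.7% of genes in the table. A match of letters is a description and not a shown binding site.

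**Figure D1:**
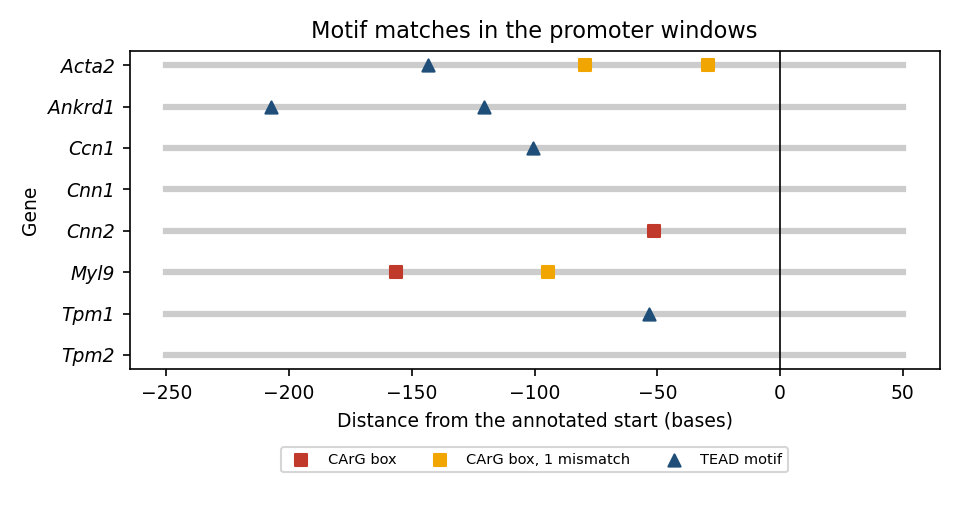
Matches of the CArG box (exact in red, with 1 mismatch in orange) and of the TEAD motif (blue triangles) in the 8 promoter windows. The horizontal axis is the distance in bases from the annotated RefSeq start and each grey bar is 1 window; Ankrd1 has 2 TEAD matches, and the windows of Cnn1 and Tpm2 have no match.

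Among the cytoskeletal genes Tagln stood furthest from 0. Tagln (ENSMUSG00000032085) encodes transgelin, a calponin-family protein that binds actin filaments. In the authors' deposited table its log2 fold change was -5.96 (SE 0.50), a 62.1-fold difference with an interval from 31.3 to 123-fold, at a mean normalized count of 1849. Among the 5780 genes that averaged at least 1000 counts per the authors' deposited table, only 3 were more negative. From the most negative, Tagln ranked 11 of 11381 genes averaging at least 100 counts, and 37 of all 17110. Splitting the mean by the fold change between groups of equal size implies about 58.6 normalized counts in the lower group and 3640 in the higher one.

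The calponins, which bind actin and restrain myosin, were unequal. Cnn1 (ENSMUSG00000001349), the smooth-muscle calponin, had a log2 fold change of -3.21 (SE 0.30) per the authors' deposited table, 9.27-fold, at a mean count of 189. Cnn2 (ENSMUSG00000004665), which is found in many cell types, had -0.92 (SE 0.22) per the authors' deposited table, 1.89-fold, at a mean count of 3010. Their intervals, -3.80 to -2.62 and -1.35 to -0.50, did not overlap.

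Tropomyosins are coiled coils that run along the actin filament and set which other proteins reach it. Tpm1 (ENSMUSG00000032366) had a log2 fold change of -2.12 (SE 0.21), 4.35-fold, and with a mean count of 6663 it was the gene with the most reads of the 10 per the authors' deposited table. Tpm2 (ENSMUSG00000028464) had -0.49 (SE 0.12), 1.40-fold, at a mean count of 748 per the authors' deposited table. The interval of Tpm2, -0.71 to -0.26, lay closest to 0 of the 10, and it alone of these genes missed the authors' fold-change limit of 0.5.

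The smooth-muscle actin and light chain had few reads. Acta2 (ENSMUSG00000035783), the smooth-muscle alpha-actin, had a log2 fold change of -1.95 (SE 0.60) at a mean count of 55.9 per the authors' deposited table. Its interval ran from -3.12 to -0.78, so its size is known only to between 1.72 and 8.71-fold. Myl9 (ENSMUSG00000067818), a regulatory light chain whose phosphorylation switches myosin on, had -1.40 (SE 0.50) at a mean count of 133 per the authors' deposited table. It had the highest adjusted p-value of the 10 per the authors' deposited table, 0.0216, and its interval reached from -2.38 to -0.41.

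Of the genes used as YAP readouts, Ccn1 and Ccn2 encode secreted matricellular proteins that bind integrins, and Ankrd1 encodes an ankyrin repeat protein of muscle sarcomeres and nuclei. Ccn1 (ENSMUSG00000028195) had a log2 fold change of -3.31 (SE 0.19) per the authors' deposited table, 9.89-fold, with an interval from 7.63 to 12.8-fold. Ccn2 (ENSMUSG00000019997) had -1.93 (SE 0.14) per the authors' deposited table, 3.81-fold, with an interval from 3.14 to 4.61-fold. Both had similar mean counts, 1472 and 1491 per the authors' deposited table, and their intervals did not overlap. Their SEs, with those of Tpm2 and Tpm1, were the smallest of the 10.

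Ankrd1 (ENSMUSG00000024803) had the most negative fold change, -6.66, but also the largest SE, 1.45, at a mean count of 9.47 per the authors' deposited table. The mean and the fold change imply about 0.186 normalized counts in a library of the lower group and 18.8 in one of the higher group. A fold change against a group with almost no reads depends on the fit, so no fold is given for it. Across the other 9 genes the log2 fold changes ran from -5.96 to -0.49 per the authors' deposited table.

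**Figure D2:**
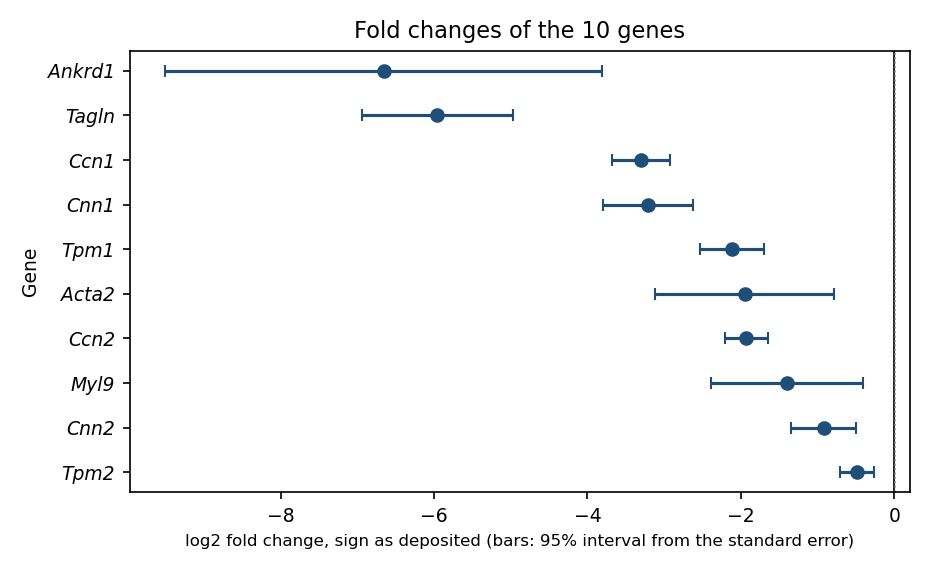
Log2 fold change of each of the 10 genes, with the sign as deposited, as a point with its 95% interval from the authors' standard error; the dotted line is the median of all genes. Every interval lies below 0, Ankrd1 has the widest, and Tpm2 lies nearest to 0.

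All 10 genes had an adjusted p-value below 0.05 per the authors' deposited table, and 9 of them, all but Tpm2, carried the authors' call down. Of the 17110 genes in the authors' deposited table, 15.9% were negative at that threshold, 14.6% were positive, and 12.1% were called down. The genes were picked from this comparison, so these counts describe the choice. In the ordering by log2 fold change Ccn1 and Cnn1 stood side by side with overlapping intervals, as did Tpm1, Acta2, Ccn2 and Myl9, and the interval of Tagln overlapped only that of Ankrd1. As a check on reads shared between genes, 0% of the 75-base stretches in the longest GENCODE M21 transcript of each of the 10 occurred in a transcript of another gene.

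**Figure D3:**
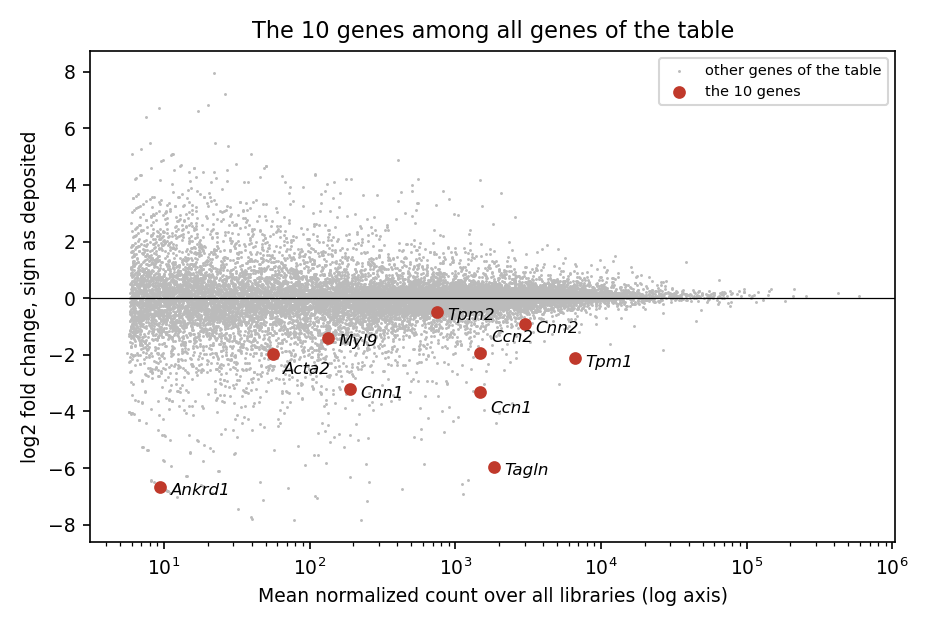
Each grey point is 1 of the genes per the authors' deposited table and the 10 genes are in red; the horizontal axis is the mean normalized count on a log scale and the vertical axis the log2 fold change with the sign as deposited. Tagln, Ccn1, Tpm1 and Ccn2 lie below nearly all genes with as many reads, while Ankrd1 lies where fold changes spread widely.

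Paralogs of the 10 genes were split between values near 0 and negative values. Of 18 listed paralogs 14 had a row, with a median of -0.20 per the authors' deposited table. At an adjusted p-value under 0.05, 6 were negative (42.9%, against 15.9% of all genes) and 0 positive (against 14.6%). For the actins, levels are given as mean normalized count per kilobase of the longest transcript, which was 27.4 for Acta2 against 24460 for Actb and 39592 for Actg1, the cytoplasmic actins. Actb and Actg1 had log2 fold changes of 0.25 (SE 0.18) and -0.27 (SE 0.18) per the authors' deposited table, neither past the threshold. The other muscle actins, Acta1 of skeletal muscle and Actc1 of heart, had -3.12 (SE 0.74) and -4.42 (SE 1.32) per the authors' deposited table, at mean counts of only 28.1 and 7.54.

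The same contrast was seen beside Cnn1, whose paralog Cnn3 had 0.035 (SE 0.093) per the authors' deposited table. Per kilobase the level of Cnn3 was 7117, against 1224 for Cnn2 and 79.4 for Cnn1. Beside Tagln, the paralog Tagln2 had a log2 fold change of -0.66 (SE 0.14; adjusted p-value 1.13e-05) and Tagln3 had -0.081 (SE 0.26) per the authors' deposited table. Pooled over all libraries, Tagln and Tagln2 were similar in level per kilobase, at 1159 and 1422. Their fold changes were far apart, so the pooled values do not mean similar levels within each group.

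Among the tropomyosins Tpm4, at -1.49 (SE 0.14; adjusted p-value 1.44e-24) per the authors' deposited table, lay between Tpm1 and Tpm2, and Tpm3 had -0.12 (SE 0.14). Levels per kilobase were 6797 for Tpm3, 2305 for Tpm1, 1901 for Tpm4 and 344 for Tpm2. The broadly expressed light chains Myl12a and Myl12b had log2 fold changes of -0.39 (SE 0.15; adjusted p-value 0.0373) and 0.065 (SE 0.091) per the authors' deposited table, at levels per kilobase of 3275 and 2164 against 118 for Myl9. In the CCN family Ccn4 had -2.66 (SE 0.66) and Ccn3 had 0.73 (SE 0.72) per the authors' deposited table, both at mean counts under 50, and Ankrd23, a relative of Ankrd1, had 0.0055 (SE 0.29).

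**Figure D4:**
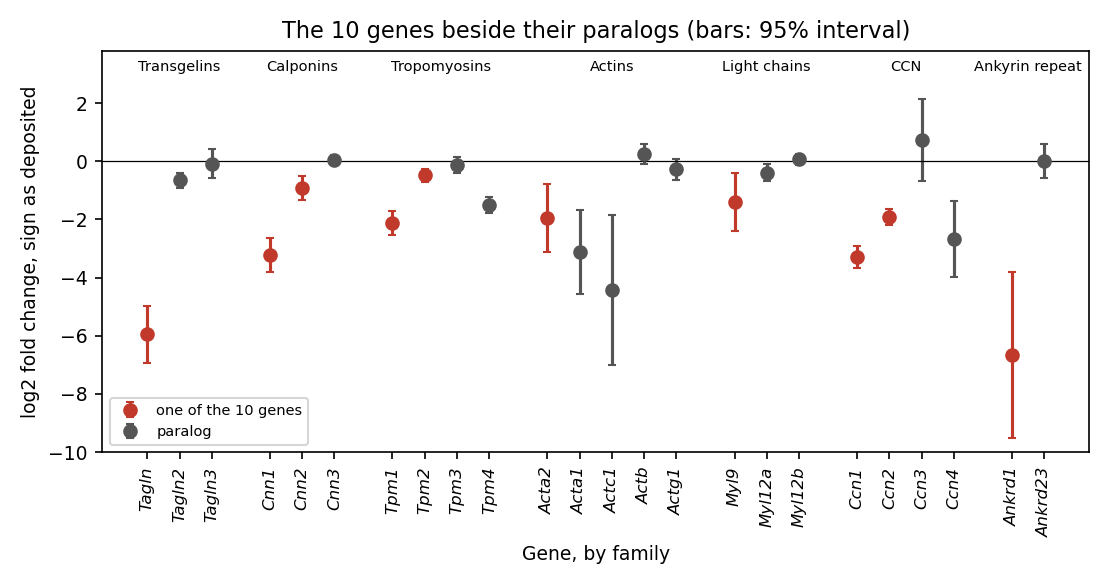
Log2 fold changes with 95% intervals for the 10 genes (red) and their paralogs (grey), grouped by family along the horizontal axis. Actb, Actg1, Cnn3, Tpm3 and Myl12b lie near 0, whereas Acta1, Actc1, Tpm4 and Ccn4 are negative like the 10 genes. Tagln2, at -0.66, and Myl12a, at -0.39, are also negative, by less.

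SRF and its cofactors had fold changes of both signs, from -0.35 to 0.46. Of 7 listed genes 6 had a row, with a median of 0.064 per the authors' deposited table. Past the threshold 1 was negative (16.7%), near the 15.9% of all genes, and 0 were positive. Srf itself had -0.32 (SE 0.16; adjusted p-value 0.107), and its cofactors Mrtfa and Mrtfb had 0.11 (SE 0.11) and 0.014 (SE 0.12) per the authors' deposited table. Of the ETS-domain cofactors, Elk4 had -0.35 (SE 0.13; adjusted p-value 0.0317), while Elk1 and Elk3 had 0.15 (SE 0.10) and 0.46 (SE 0.20) per the authors' deposited table and missed the threshold.

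Other genes known as targets of SRF with MRTF cofactors were split. Of 22 listed 20 had a row, with a median of -0.54 per the authors' deposited table. Past the threshold 10 of the 20 were negative, against 15.9% of all genes, and 1 was positive, against 14.6%. The 2 largest changes were in Fhl2, a LIM-domain coactivator, at -5.30 (SE 1.03; adjusted p-value 2.88e-06) with a mean count of 20.9, and in Actc1, given above. Zyx, a focal adhesion protein, had -3.00 (SE 0.47), and Cald1, the actin-binding caldesmon, had -2.07 (SE 0.23) per the authors' deposited table. The adhesion and filament proteins Flna, Tln1 and Dstn had 0.023, 0.11 and -0.045 per the authors' deposited table and missed the threshold, and the 1 positive gene was the integrin Itga5 at 0.53 (SE 0.16).

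Immediate-early genes, which SRF drives with ETS-domain cofactors after growth-factor signals, had a median of -1.53 per the authors' deposited table. Of 7 measured genes 5 were negative past the threshold (71.4%, against 15.9% of all genes) and 0 positive. Fosb had -2.97 (SE 0.20; adjusted p-value 2.71e-46), Fos -2.57 (SE 0.42) and Egr1 -1.53 (SE 0.54; adjusted p-value 0.0174) per the authors' deposited table. The one with the most reads, the survival factor Mcl1, had 0.057 (SE 0.068) per the authors' deposited table.

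On the YAP side, 9 of 20 components of the pathway were negative past the threshold (45.0%, against 15.9% of all genes). Of the 20, 1 was positive (against 14.6%), and the median was -0.26 per the authors' deposited table. The list holds both genes that act with YAP and genes that restrain it, so its counts give no direction of YAP activity. Yap1 itself had -0.12 (SE 0.097; adjusted p-value 0.384), while Wwtr1, which encodes TAZ, had -0.81 (SE 0.18; adjusted p-value 5.25e-05) per the authors' deposited table. Of the TEAD factors, Tead1 had -0.46 (SE 0.13) and Tead3 -1.45 (SE 0.24), both past the threshold, and Tead2 and Tead4 had -0.17 (SE 0.10) and -0.20 (SE 0.19) and did not pass per the authors' deposited table. Amot, an angiomotin that holds YAP at junctions, had -3.46 (SE 0.59), Vgll3, a TEAD cofactor, had -1.75 (SE 0.46), and Nf2, an upstream activator of the Hippo kinases, was the positive gene at 0.51 (SE 0.085) per the authors' deposited table. Of the Hippo kinases and their partners, Lats1 and Sav1 had -0.36 (SE 0.10) and -0.61 (SE 0.089), both past the threshold. Stk3 and Stk4 had -0.024 (SE 0.16) and -0.0059 (SE 0.11) and missed it.

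Other YAP and TAZ targets had 17 of 20 listed genes with a row, with a median of -0.79 per the authors' deposited table. Past the threshold 11 were negative (64.7%, against 15.9% of all genes) and 1 was positive (against 14.6%). Tgfb2, a transforming growth factor, had -4.07 (SE 0.66), and Igfbp3, a binding protein of insulin-like growth factors, had -3.71 (SE 0.52) per the authors' deposited table. Amotl2, an angiomotin and feedback target, had -0.79 (SE 0.15), and the positive gene was Myof, a membrane-repair protein, at 1.79 (SE 0.20) per the authors' deposited table. All these lists come from the same comparison as the 10 genes and were drawn up with its results known.

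**Figure D5:**
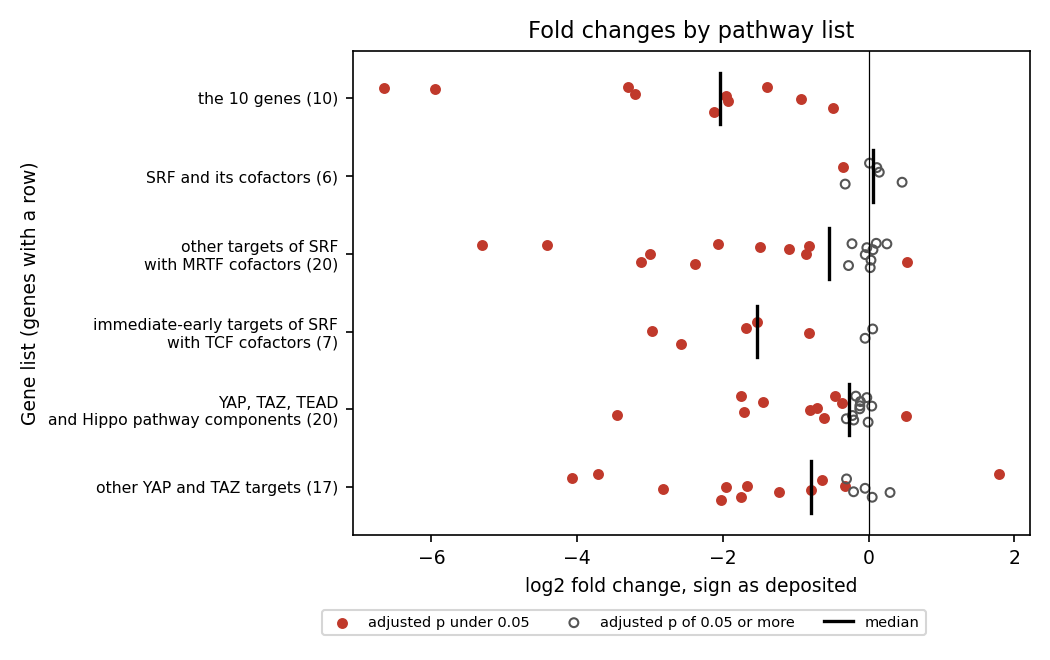
Log2 fold change of each gene by list (number of genes with a row in brackets), filled where the adjusted p-value was under 0.05 and open otherwise, with the median as a black bar; vertical placement within a list carries no value. Medians are -2.04 for the 10 genes, -1.53 for immediate-early genes, -0.79 for other YAP and TAZ targets and near 0 for SRF with its cofactors.

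The labels name stem cells only, so markers of other cell types in which the 10 genes are commonly found were examined. The 6 of 8 smooth muscle markers with a row had mean counts from 8.80 to 933 and a median of 0.0053 per the authors' deposited table. Of these 6, 1 was negative (16.7%) and 1 positive, near the 15.9% and 14.6% of all genes. Myh11, the smooth-muscle myosin that defines that cell type, had a mean count of 12.0 and -2.31 (SE 0.72) per the authors' deposited table, and Smtn and Des had 0.034 (SE 0.14) and -0.23 (SE 0.24). The positive marker was Smtnl1, a smoothelin-like protein, at 3.33 (SE 0.66; adjusted p-value 4.54e-06) with a mean count of 23.0 per the authors' deposited table. Of 12 fibroblast markers 6 had a row, none with a mean count above 94.2. Past the threshold 3 of the 6 were negative, against 15.9% of all genes, and 0 positive, against 14.6%. The negative ones were Col1a1 at -1.67 (SE 0.58), Col1a2 at -4.85 (SE 1.22) and Twist1 at -2.54 (SE 0.35) per the authors' deposited table. Pdgfrb, Pdgfra and Thy1 had -0.54 (SE 0.37), -0.88 (SE 0.79) and 0.34 (SE 0.43) and missed the threshold. The smooth muscle genes Myocd and Actg2 and the fibroblast genes Col3a1, Dcn, Lum, Postn, Prrx1 and Twist2 were not analysed here. All 4 heart muscle markers with a row missed the threshold per the authors' deposited table.

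Trophectoderm markers had the same sign as the 10 genes, with a median of -4.17 per the authors' deposited table. Past the threshold 5 of 6 were negative (83.3%, against 15.9% of all genes). The keratins Krt8, Krt18 and Krt19 had -4.39 (SE 0.52), -3.96 (SE 0.51) and -4.73 (SE 0.31), so the median rests on keratins. Cdx2 had -5.82 (SE 0.96) and Eomes -2.22 (SE 0.33). Gata3, at a mean count of 13.7, had -1.66 (SE 0.89) and missed the threshold. The 8 pluripotency markers had the opposite sign, with 6 positive past the threshold, against 14.6% of all genes, and 0 negative. Their median was 0.68, at mean counts from 1260 to 32810 per the authors' deposited table. The part of these cell types in the values of the 10 genes was not tested.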

How the data were processed

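The labels list 6 libraries in 2 sorted groups of 3. Per the submitters' processing notes, FastQC 0.12.1, Trimmomatic 0.39, STAR 2.7.11b, RSEM 1.3.3 and DESeq2 1.45.3 were used with GRCm39. The model formula, reference group and strand setting are not given in the sources used here. The mean normalized count is a signal that the authors pooled over all libraries. Log2 fold changes and standard errors are on the log2 scale as the authors deposited them, and the deposited statistic is a score equal to their ratio within 5.77e-07. P-values and adjusted p-values are those the authors deposited. The 6 count columns match no sample label and were not used, so depth per library is unknown here and the planned tests on counts were not run.

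The members and lists were chosen with earlier results of these data known. Computed here, in Python 3.11.15 with pandas 2.3.3, were intervals, counts past an adjusted p-value of 0.05, medians, implied group means and motif matches. Simulated data tested only the adjustment of p-values and the search for the exact CArG box. Named genes were the 10 members, all paralogs, SRF cofactors and YAP, TAZ and TEAD genes with a row, and the 2 most abundant and 2 most changed genes of each pathway list. Zyx, Cald1, Flna, Tln1, Dstn, Itga5, Myof, Lats1, Sav1, Stk3, Stk4, the named cell type markers and the chromosomal neighbours were named after their values were seen. Promoters came from RefSeq (GRCm38.p6), and transcript lengths and exons from GENCODE M21. Protein sequences were not analysed here, and 1 planned gene list is not reported here.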

Additional observations from a re-analysis of the deposited data

How the results depend on the processing

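The alternatives were a stricter adjusted p-value, fold-change limits of 0.5 and 1, centring on all genes or on 86 ribosomal protein genes (shifts of 0.0097 and 0.098), and a mean count of at least 50, which leaves out Ankrd1. None of them could turn a negative fold change of the 10 genes, since limits and filters leave the value as it is and both centrings lower it, so only calls could change. Calls were lost by Myl9 at an adjusted p-value under 0.01, Tpm2 at a limit of 0.5, and Tpm2 and Cnn2 at a limit of 1. Motif counts stayed within 1.5 times.

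At an adjusted p-value under 0.01, negative calls fell to 0 of 6 for SRF and its cofactors and 3 of 7 for immediate-early targets. The whole table then had 2073 negative of 17110. At a limit of 0.5, SRF and its cofactors had 0 negative, and the whole table had 2067 negative and 1609 positive. At a limit of 1, negative calls were 0 for SRF and its cofactors, 4 for the YAP pathway and 1315 for the whole table. At that limit positive calls were 0 for MRTF-type targets, 0 for the YAP pathway and 957 for the whole table. The stricter limits themselves produce these changes. Ribosomal centring gave SRF and its cofactors 2 negative. With a mean count of at least 50 the paralogs had 3 negative of the 10 left, against 2219 of the 12658 genes left in the whole table.

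No paired analysis was possible because neither the names of the count columns nor the comparison table give replicate numbers. For the same reason DESeq2 and edgeR on counts, count filters and fits without 1 replicate were not run, so whether 1 library decides a value is not answered here. Precision falls with the count: the median standard error was 0.63 for genes with a mean count under 50, where Ankrd1 lies, against 0.18 over all genes.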

Other observations

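The genes next to the 10 along the chromosomes were also looked at, an analysis added after the data had been seen. For each gene the 2 nearest genes with a row on either side were taken, in RefSeq order, 40 in all. Of these neighbours, 11 were negative at an adjusted p-value under 0.05 (27.5%), against 15.9% of all genes. Of the 40, 5 were positive, against 14.6% of all genes, and the median was -0.10 per the authors' deposited table. The negative ones were uneven: Cnn1, Cnn2, Tpm1 and Tpm2 had 0 each, and Ccn2 had 4 of 4. Positive neighbours were Lipo2 beside Acta2 at 2.18 (SE 0.37), Kif20b beside Ankrd1 at 0.49 (SE 0.093) and Ecsit beside Cnn1 at 0.42 (SE 0.13). The others were Tln2 beside Tpm1 at 0.49 (SE 0.11) and Arhgef39 beside Tpm2 at 0.37 (SE 0.14).

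Around Ccn2, the neighbours were Stx7, a syntaxin of endosomes, at -0.69 (SE 0.20), and Moxd1, a monooxygenase-like protein, at -1.89 (SE 0.31). Enpp1 and Enpp3, which encode ectonucleotide pyrophosphatases, had -2.15 (SE 0.72) and -1.27 (SE 0.11) per the authors' deposited table. The mean count of Enpp1 was only 15.4. Next to Ccn1, Ddah1, which breaks down methylated arginine, had -1.40 (SE 0.21) per the authors' deposited table. Gm17501 had -2.20 (SE 0.83) at a mean count of only 8.50. The 4 neighbours of Tagln held 1 negative gene, Sidt2 at -0.61 (SE 0.12) per the authors' deposited table. Whether neighbours move together beyond what the table holds elsewhere was not tested.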
